A study of Homo sapiens with 2 samples.

Results

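The 10 genes described here encode proteins that make, carry, break down or sense retinoic acid. They were chosen by name from the 17397 genes listed in both expression tables, as ALDH1A2, CYP26A1, CYP26B1, RDH10, DHRS3, CRABP1, CRABP2, RARA, RARB and RARG, and all 10 were found by their NCBI Gene number. The study deleted MEIS2, a homeobox gene that is known to respond to retinoic acid, in H1 human embryonic stem cells and asked how the deletion affects the formation of blood precursors. RNA-Seq was available for 1 library of wild-type (WT) H1 cells and 1 library of MEIS2-/- H1 cells, both taken at day 4 of hematopoietic differentiation. Both cultures had received 50 ng/ml activin A with 40 ng/ml BMP4 for 2 days, followed by 40 ng/ml VEGF with 50 ng/ml bFGF for another 2 days, in Custom mTeSR1 medium. No retinoid is named among the added factors. The MEIS2-/- cells descend from single cells infected with a lentivirus that carried Cas9 and a guide against MEIS2 exon 3, followed by puromycin selection. The sources used here do not say which clone was sequenced, nor whether the WT cells had gone through a comparable infection and selection.

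Retinoic acid is made from vitamin A (retinol) in a pair of steps. RDH10 oxidizes retinol to retinaldehyde, DHRS3 turns retinaldehyde back into retinol, and the ALDH1A enzymes oxidize retinaldehyde to retinoic acid irreversibly. CRABP1 and CRABP2 bind retinoic acid in the cytoplasm, the CYP26 enzymes degrade it, and the receptors RARA, RARB and RARG bind DNA together with an RXR partner and activate target genes when retinoic acid is present. In the embryo the pathway patterns the body axis and takes part in the formation of blood and vessels, and several of its own genes are direct targets of the receptors, which makes CYP26A1 and RARB common readouts of the signal.

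The promoters of the genes were searched for the sequences that retinoic acid receptors bind, since several of these genes are known targets of the receptors. Windows from 250 bases before to 50 bases after an annotated transcription start were taken from RefSeq on GRCh38.p14, and 9 of the 10 genes had at least 1 such window, 18 windows in all. A receptor site was defined as a pair of 6-base units in the same orientation with 5 bases between them, each unit being AGGTCA or AGTTCA or GGGTCA or GGTTCA, on either strand. This pair was present in 31 of 35116 windows of all genes, or 0.0883%. Among the 18 windows it was found in 2, at the second listed start of CYP26A1 and the first listed start of RARB. Read on the strand that holds the repeat, with the 6-base units in capitals, the sites are the following.
CYP26A1: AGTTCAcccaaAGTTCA
RARB: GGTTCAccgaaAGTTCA

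The sites hold the same base at 15 of 17 positions. The CYP26A1 repeat reads this way on the strand opposite to the direction of transcription and occupies bases -90 to -74, counted from 0 at the annotated start. The RARB repeat reads in the direction of transcription, at bases -53 to -37. Units of the same kind with 1 or 2 bases between them were found in none of the 18 windows. They occurred in 46 and 14 of all 35116 windows. The windows that hold the sites are printed below in the direction of transcription to show the repeat beside the annotated start it accompanies, 1 of 2 listed for CYP26A1 and 1 of 4 for RARB, with the repeat in capitals. The CYP26A1 window is chr10:93073643-93073942 on the plus strand and the RARB window is chr3:25428013-25428312 on the plus strand, both on GRCh38.p14.
CYP26A1: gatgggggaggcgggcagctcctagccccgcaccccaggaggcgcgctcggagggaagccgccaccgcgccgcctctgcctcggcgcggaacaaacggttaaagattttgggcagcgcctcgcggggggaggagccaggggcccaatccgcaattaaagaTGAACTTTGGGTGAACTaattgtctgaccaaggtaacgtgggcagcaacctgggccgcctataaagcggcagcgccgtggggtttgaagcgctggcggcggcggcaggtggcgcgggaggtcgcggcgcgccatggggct
RARB: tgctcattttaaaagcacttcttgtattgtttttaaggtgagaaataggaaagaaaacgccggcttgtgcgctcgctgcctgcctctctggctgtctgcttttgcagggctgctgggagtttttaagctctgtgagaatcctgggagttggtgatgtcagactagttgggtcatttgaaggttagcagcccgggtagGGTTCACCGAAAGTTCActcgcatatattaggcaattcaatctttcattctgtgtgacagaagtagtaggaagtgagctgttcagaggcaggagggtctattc

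The same windows were searched for TGACAG, the core of the MEIS binding motif, on either strand. It was found in 4 of the 18 windows, namely at 2 of the 4 listed starts of RARB and at 1 start each of DHRS3 and ALDH1A2. Over all genes 5533 of 35116 windows, or 15.8%, held these letters. In the RARB window printed above, TGACAG lies at bases 1 to 6 after the start, downstream of the receptor repeat. These matches are letters in a short window and say nothing of whether a factor was bound, and the FPKM values do not separate the transcripts of different starts.

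**Figure D1:**
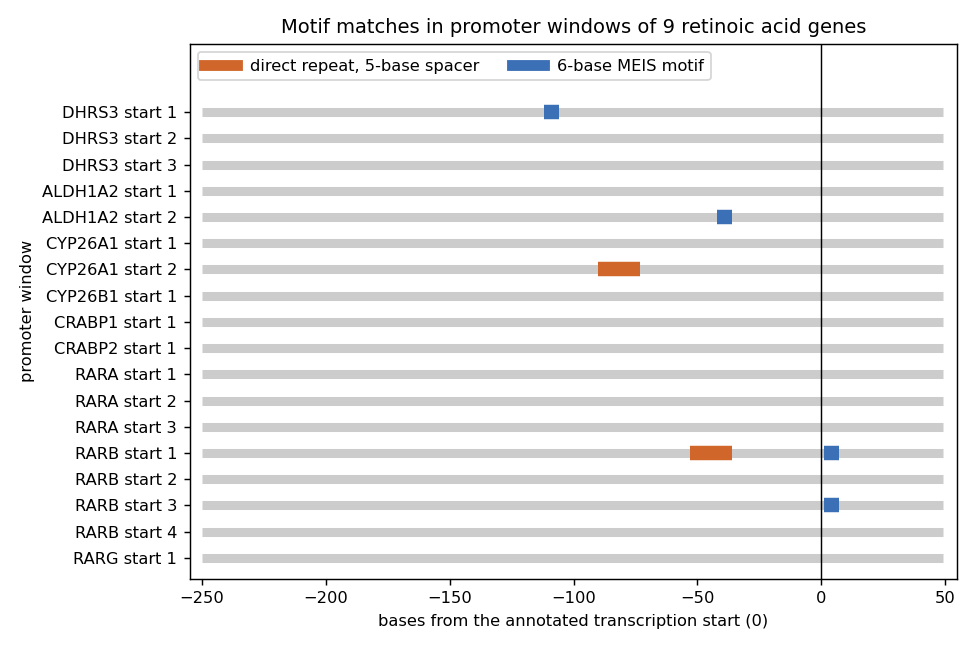
Each grey bar is a promoter window of 1 of 9 genes, drawn from 250 bases before to 50 bases after an annotated start (0 on the horizontal axis, in bases), with orange marks for the receptor repeat and blue marks for TGACAG. The repeat appears at CYP26A1 start 2 and RARB start 1, and TGACAG appears in 4 of the 18 windows.

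Expression was given as FPKM, fragments scaled to the length of the transcript and to the total of mapped fragments, which allows levels of different genes within a library to be set side by side. Differences are given as a log2 fold change, the MEIS2-/- value over the WT value, each with 0.1 FPKM added. This addition makes differences between low values look smaller. A gene was compared if either library reached 1 FPKM, which held for 13075 genes. The FPKM values summed to 447542 in WT and 440651 in MEIS2-/- cells, and the median log2 fold change of all compared genes was 0.12. With 1 library per genotype no test of a difference is possible, so every difference below describes these 2 libraries and has no replicate check. Depth is unknown, because the low values could not be turned back into whole reads. The targeted gene, MEIS2, was at 10.85 FPKM in the WT library and 3.44 FPKM in the MEIS2-/- library, with a log2 fold change of −1.63. An edit made by Cas9 need not remove the mRNA, so this value does not measure the loss of the protein. For the protein, the paper identified its knockout lines by Western blotting and then by sequencing. MEIS1 was at 4.97 and 3.41 FPKM and MEIS3 at 85.99 and 33.09 FPKM.

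Of the 10 retinoic acid genes, 8 had a lower FPKM in MEIS2-/- cells than in WT cells and DHRS3 and CRABP1 had a higher one. ALDH1A2 was under 1 FPKM in both libraries and was not compared, which left 9 genes. Of these 9, 3 were at least 2-fold lower (CRABP2, CYP26B1 and RARA), against 7.97% of all compared genes, and 1 was at least 2-fold higher (DHRS3), against 7.84% of all compared genes. The other 5 lay between these marks. CYP26B1 and RARB were compared only because of their WT values. The median log2 fold change of the 9 genes was −0.76, and 7 of them were lower by any amount, compared with 40.6% of all compared genes. The genes were chosen with results of these libraries known, and several respond to the same signal, so these counts are a description.

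**Figure D2:**
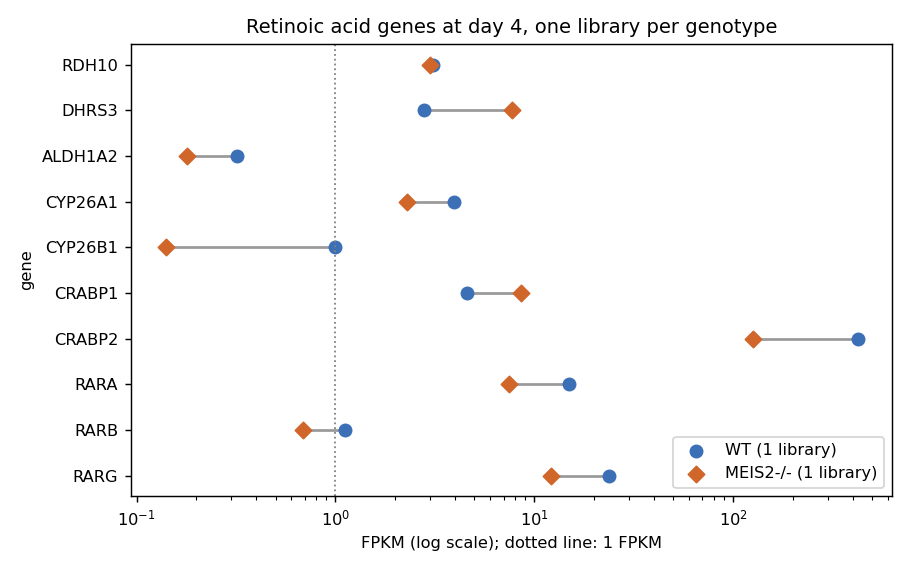
FPKM of each of the 10 genes on a log scale in the WT library (blue circles) and the MEIS2-/- library (orange diamonds), with a dotted line at 1 FPKM. CRABP2 stands far to the right of the other genes in both libraries, and only DHRS3 and CRABP1 have the orange diamond to the right of the blue circle.

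The carriers of retinoic acid held the highest level of the group. CRABP2, which delivers retinoic acid to the receptors in the nucleus, was at 422.99 FPKM in the WT library and 125.80 FPKM in the MEIS2-/- library. It ranked 151 among all 17397 genes in WT cells and 554 in MEIS2-/- cells, and its log2 fold change was −1.75, a level 3.36-fold lower. Of all compared genes, 2.72% had a log2 fold change as low or lower. CRABP1, which is thought to hold retinoic acid in the cytoplasm and favour its breakdown, went the other way, from 4.58 FPKM in the WT library to 8.61 FPKM in the MEIS2-/- library, with a log2 fold change of 0.90. CRABP2 made up 98.9% of the summed CRABP FPKM in WT cells and 93.6% in MEIS2-/- cells, so the sum followed CRABP2 and went from 427.57 to 134.41 FPKM. The level of CRABP2 was thus 92.4 times that of CRABP1 in WT cells and 14.6 times in MEIS2-/- cells. CRABP2 is found on chromosome 1, minus strand, from 156699606 to 156705816 on GRCh38 in GENCODE 29, and CRABP1 on the plus strand of chromosome 15, from 78340324 to 78348230. In a bulk library, fewer cells that express CRABP2 and less CRABP2 mRNA per cell cannot be told apart, and the same holds for each gene below.

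The receptors of the RAR type were lower in MEIS2-/- cells, and the share of each in their sum was nearly the same in both libraries. RARG was the highest of them, at 23.84 FPKM in the WT library and 12.10 FPKM in the MEIS2-/- library, with a log2 fold change of −0.97. RARA was at 14.96 and 7.42 FPKM, with a log2 fold change of −1.0. These lie on either side of the 2-fold mark although they differ by less than 0.1 on the log2 scale, so counting RARA and not RARG as 2-fold lower separates like values. RARB was low, at 1.12 FPKM in the WT library and 0.69 FPKM in the MEIS2-/- library, with a log2 fold change of −0.63. The order RARG, RARA, RARB was the same in both libraries. RARG made up 59.7% of the summed RAR FPKM in WT cells and 59.9% in MEIS2-/- cells, RARA 37.5% and 36.7%, and RARB 2.81% and 3.41%. The RAR sum went from 39.92 to 20.21 FPKM. On GRCh38 in GENCODE 29, RARG lies on the minus strand of chromosome 12 (53210567 to 53232980), RARA on the plus strand of chromosome 17 (40309192 to 40357643) and RARB on the plus strand of chromosome 3 (25174332 to 25597932).

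The RXR partners stood otherwise. RXRA, with which RAR proteins pair on DNA, was at 16.10 FPKM in the WT library and 20.11 FPKM in the MEIS2-/- library, and RXRB was at 11.30 and 11.10 FPKM. RXRG was listed at 0.37 and 0.35 FPKM, under the 1 FPKM limit. Summed over each family, RAR mRNA was 1.44 times RXR mRNA in WT cells and 0.64 times in MEIS2-/- cells. RXR proteins also pair with receptors for other ligands, so the RXR sum is not a measure of this pathway alone.

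The enzymes that break down retinoic acid did not move as a group. CYP26A1, whose promoter holds the receptor repeat shown above, was at 3.96 FPKM in the WT library and 2.30 FPKM in the MEIS2-/- library, with a log2 fold change of −0.76. CYP26B1 was listed at 1 FPKM in the WT library, the lowest value that passes the limit, and at 0.14 FPKM in the MEIS2-/- library. Its log2 fold change of −2.20 was the lowest among the 9 genes, and it depends on the added constant more than that of any other, becoming −0.81 when 1 FPKM was added in place of 0.1 FPKM. CYP26C1, which lies next to CYP26A1 on chromosome 10 with no protein-coding gene between them in RefSeq, was at 0.45 FPKM in the WT library and 4.51 FPKM in the MEIS2-/- library, a log2 fold change of 3.07. CYP26C1 is not among the 10 genes, comes from the wider list of retinoid genes and was compared only because of its MEIS2-/- value. It made up 8.32% of the summed CYP26 FPKM in the WT library and 64.9% in MEIS2-/- cells, while CYP26A1 went from 73.2% to 33.1%. The sum of the 3 enzymes went from 5.41 to 6.95 FPKM. This higher sum rests on CYP26C1 alone, since CYP26A1 and CYP26B1 were both lower. Both genes on chromosome 10 are transcribed from the plus strand, CYP26C1 from 93060808 to 93069536 and CYP26A1 from 93073475 to 93077890, and CYP26B1 is found on chromosome 2, minus strand, from 72129238 to 72148038 (GRCh38, GENCODE 29). The receptor repeat was not found in the window of CYP26C1, and bases outside the windows were not searched.

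RDH10 and DHRS3 act in opposite directions between retinol and retinaldehyde. RDH10, which makes retinaldehyde, was at 3.08 FPKM in the WT library and 2.98 FPKM in the MEIS2-/- library, a log2 fold change of −0.05. DHRS3, which removes retinaldehyde, was at 2.80 and 7.71 FPKM, a log2 fold change of 1.43. The ratio of DHRS3 to RDH10 FPKM was therefore 0.91 in WT cells and 2.59 in MEIS2-/- cells. DHRS3 is found on chromosome 1, minus strand, from 12567910 to 12617731 (GRCh38, GENCODE 29), and 96.3% of all compared genes had a log2 fold change as low or lower. DHRS3 is known to be induced by retinoic acid in many cells, as are CYP26A1 and RARB. In the MEIS2-/- library DHRS3 was higher, and CYP26A1 and RARB were lower, with RARB compared only because of its WT value. The part of retinoic acid in these values was not tested.

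ALDH1A2, the main source of retinoic acid in early mesoderm of the embryo, was close to the bottom of the range at 0.32 FPKM in the WT library and 0.18 FPKM in the MEIS2-/- library, and no fold change is given for it. It is found on chromosome 15, minus strand, from 57953424 to 58497866 (GRCh38, GENCODE 29). The related enzymes ALDH1A1 and ALDH1A3, from the wider list, had a higher FPKM than ALDH1A2 in both libraries. ALDH1A1 was at 0.56 FPKM in the WT library and 6.35 FPKM in the MEIS2-/- library, a log2 fold change of 3.29, and ALDH1A3 was at 1.99 and 2.14 FPKM, a log2 fold change of 0.10. The enzyme with the highest FPKM was thus ALDH1A3 in WT cells, with 69.3% of the family sum, and ALDH1A1 in MEIS2-/- cells, with 73.2%. The sum of the 3 genes went from 2.87 to 8.67 FPKM, mostly through ALDH1A1, which was compared only because of its MEIS2-/- value. The libraries hold mRNA levels only, and neither retinoic acid nor enzyme activity was measured in them.

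**Figure D3:**
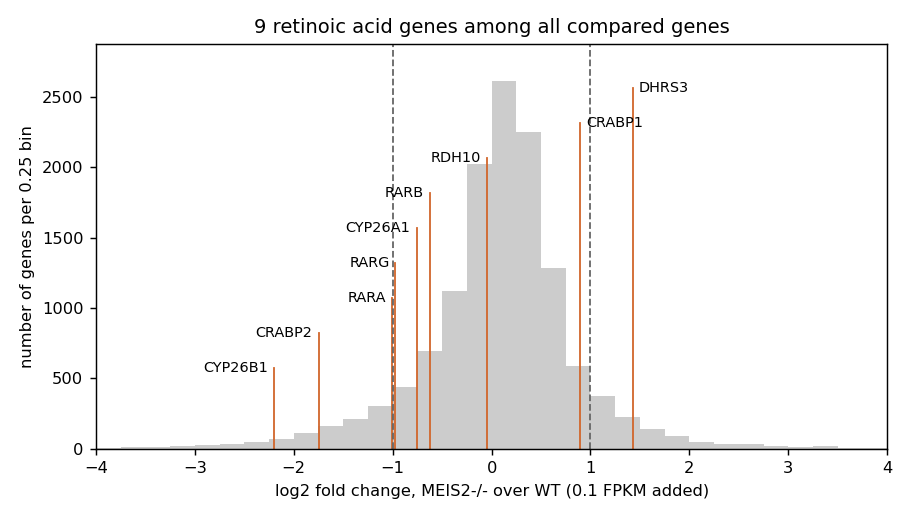
Grey bars count all 13075 compared genes by their log2 fold change (MEIS2-/- over WT) in bins 0.25 wide, and orange lines place the 9 compared retinoic acid genes, with line height used only to separate the names. The dashed lines mark 2-fold, with CYP26B1, CRABP2 and RARA at or beyond the lower one and DHRS3 beyond the upper one.

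A wider list of 66 retinoid genes, not counting the 10, was compared in the same way. Values were at hand for 58 of them and 41 passed the limit of 1 FPKM. Of the 41, 3 were at least 2-fold lower (7.97% of all compared genes were) and 9 at least 2-fold higher in MEIS2-/- cells (7.84% of all compared genes). One of the lower genes is MEIS2, the targeted gene, and 6 of the 9 higher genes (ALDH1A1, CYP26C1, RBP4, TTR, CDX1 and PLAAT4) were under 1 FPKM in the WT library, so they entered the comparison only through the library in which they are high. The median log2 fold change of the 41 was 0.18, compared with −0.76 for the 9 genes above and 0.12 for all compared genes.

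Among the other retinol and retinaldehyde enzymes, 11 were compared, and ALDH1A1 was the only one past 2-fold. RDH11, a retinaldehyde reductase, was at 32.98 and 39.89 FPKM, and ADH5, the most highly expressed of the list, was at 64.54 and 65.58 FPKM. Of the 6 compared genes of binding and uptake, 3 were at least 2-fold higher, against 7.84% of all compared genes, and none was at least 2-fold lower. The 3 were TTR, which carries the retinol transport complex in plasma, at 0.38 and 5.31 FPKM, RBP4, the plasma carrier of retinol, at 0.50 and 1.40 FPKM, and RBP5, a cellular retinol-binding protein, at 1.36 and 4.50 FPKM. TTR and RBP4 were compared only because of their MEIS2-/- values. STRA6, the cell surface receptor for RBP4, was at 29.20 FPKM in the WT library and 23.05 FPKM in the MEIS2-/- library. FABP5, which can carry retinoic acid to receptors other than the RARs, was at 100.61 and 141.84 FPKM. In WT cells CRABP2 was the higher of CRABP2 and FABP5, and in MEIS2-/- cells FABP5 was.

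Of the 11 coregulators of nuclear receptors, all compared, 2 were at least 2-fold higher, the coactivators NCOA2 (2.15 and 5.86 FPKM) and CREBBP (6.86 and 15.02 FPKM), against 7.84% of all compared genes, and none was at least 2-fold lower. The corepressor NCOR1 (9.05 and 13.10 FPKM) differed by less than 2-fold. Of 13 compared genes that are known to respond to retinoic acid, other than the 10 and with 3 genes of the lists above counted again, among them STRA6 and NRIP1, 10 were lower by any amount (40.6% of all compared genes were) and 3 were higher. Their median log2 difference was −0.34. The 3 genes past 2-fold in the lower direction were HOXB1 (1.96 and 0.44 FPKM), HOXB4 (16.52 and 4.15 FPKM) and the targeted gene MEIS2. HOXB1 was compared only because of its WT value. The 2 past 2-fold in the higher direction, both under 1 FPKM in the WT library, were CDX1, a homeobox gene of the posterior body axis, at 0.99 and 12.44 FPKM, and PLAAT4, also known as RARRES3, at 0.57 and 3.36 FPKM.

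**Figure D4:**
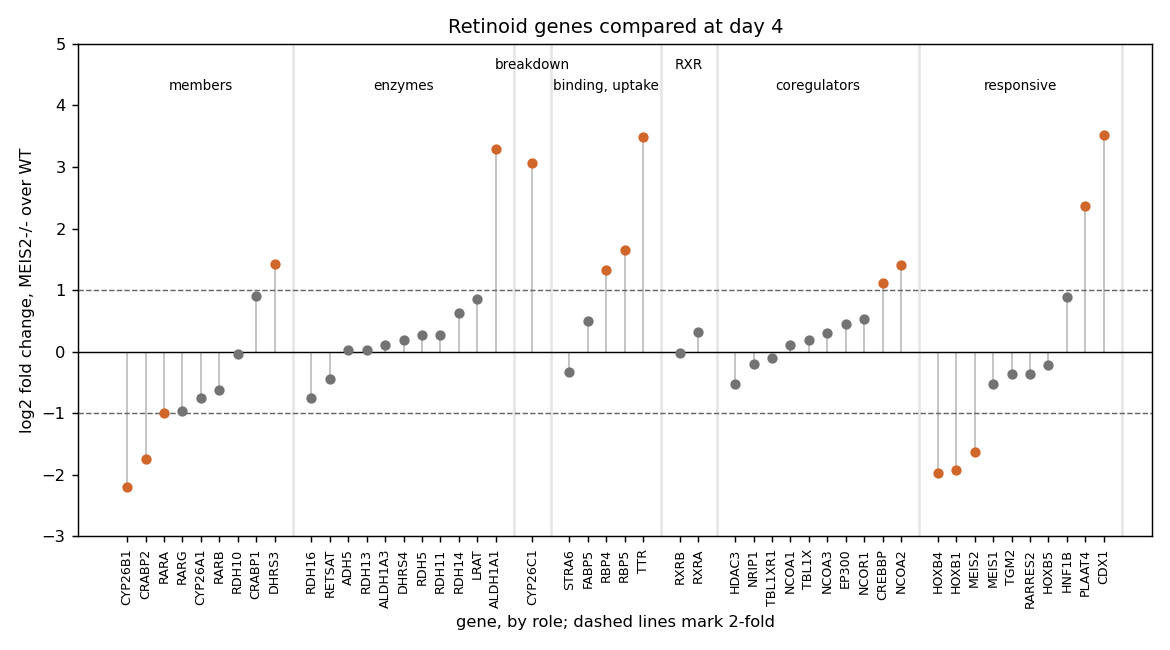
Log2 fold change (MEIS2-/- over WT) of the 9 compared genes (left) and of 39 of the 41 compared genes of the wider retinoid list, by role, with orange points at or past 2-fold (dashed lines). The left block lies mostly below 0, while ALDH1A1, CYP26C1, TTR and CDX1, compared only because of their MEIS2-/- values, exceed 3 on the log2 scale.

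The mRNA of cell type markers also differed between the libraries, and the part of cell types in the values above was not tested. The counts below stand beside the shares of all compared genes, 7.97% at least 2-fold lower, 7.84% at least 2-fold higher and 40.6% lower by any amount. Of 9 endothelium markers, 8 were compared, and 5 of these were at least 2-fold lower and the other 3 lower by less. PECAM1 was compared only because of its WT value. The sum of the list went from 434.29 to 103.35 FPKM, mostly KDR (323.77 and 61.98 FPKM). Of 6 pluripotency markers, 5 were compared and all 5 were higher, 3 of them at least 2-fold, with sums of 536.93 and 1831.76 FPKM, mostly POU5F1, while SOX2 stayed at 0.09 and 0.15 FPKM. All 8 visceral endoderm markers, TTR among them, were higher, 6 of them at least 2-fold. Of these 6, TTR, APOB and AFP were compared only because of their MEIS2-/- values, so they could only come out higher. The sums were 595.11 and 1244.52 FPKM, mostly APOA1. Of 8 markers of primitive streak and mesoderm, 2 were at least 2-fold lower and 2 at least 2-fold higher (sums 423.89 and 316.52 FPKM, mostly HAND1). Of 5 compared cardiac mesoderm markers, 2 were at least 2-fold lower (sums 217.12 and 126.90 FPKM). For blood, 3 of 7 markers were compared, with TAL1 at least 2-fold lower and HBE1 at least 2-fold higher (sums 31.74 and 12.85 FPKM, mostly TAL1). HBE1 was compared only because of its MEIS2-/- value. For neuroectoderm only NES was compared, at 92.71 and 66.02 FPKM. No marker with a value was listed at 0 in either library.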

How the data were processed

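RNA-Seq was performed by BGI on Trizol RNA with an Illumina TruSeq RNA kit. The authors deposited 1 table per library with FPKM per NCBI Gene number, rounded to 2 decimals. The submitters' processing notes name hg19, BWA, Bowtie and RSEM without roles or versions. FPKM divides by the library total, so a few highly expressed genes shift all others.

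The 17365 of 17397 genes with a RefSeq symbol were matched by gene number. Log2 fold changes used a pseudocount of 0.1 FPKM and genes that reached 1 FPKM in either library. A change of 2-fold or more was counted. No test was made with 1 library per genotype. Agreement of low values with whole reads, where 1 is complete, was 0.078 in WT (956 genes with 1 transcript) and 0.12 in MEIS2-/- cells (1065 genes), so depth is unknown and no counting interval is given. The computation was tested on WT values with planted 4-fold changes in genes at 5 FPKM or more, without noise. That tests the code only and does not bear on the differences described here. The genes named were the 10, the MEIS genes, every gene of the wider list past 2-fold and examples of the others. Marker lists are given by counts and sums. Members and lists were chosen with earlier results of these data known. The values of some listed genes are not reported here. Alternatives were pseudocounts, filters, folds and scalings. Gene positions came from GENCODE 29 and promoters from RefSeq, both on GRCh38, whereas the processing notes name hg19. Python 3.11.15, numpy 2.4.6, pandas 2.3.3 and matplotlib 3.10.9 were used.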

Additional observations from a re-analysis of the deposited data

How the results depend on the processing

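For 16 results and 8 alternative settings, 104 values were computed, of which 82 kept their direction and side of the 2-fold mark or, for a count, stayed within 1.5 times. No log2 fold change of the 9 compared genes changed sign, but none of these settings could have reversed one. A pseudocount or a filter cannot change a sign, and the scalings shifted values by only −0.12 and −0.10 on the log2 scale. A filter also leaves the fold change of each gene as it is. The fold changes of single genes under the filter settings are therefore among the 82 by construction. With a pseudocount of 1 FPKM the log2 fold change of CYP26B1 became −0.81 and that of RARA −0.92, which left 1 gene of the 9 (CRABP2) at least 2-fold lower, and the counts over all genes became 693 lower and 623 higher. With the median log2 ratio set to 0, a shift of −0.12 for every gene, RARG was at −1.09, and with the trimmed mean of log ratios at −1.08, so it then passed 2-fold. At 1.5-fold, 6 of the 9 genes were lower and 2 higher (1890 and 2353 of all genes). At 4-fold, 1 was lower (CYP26B1, compared only because of its WT value) and 0 higher (241 and 194 of all genes). Of the 41 compared genes of the wider list, 0 were then lower and 5 higher. These 5 (ALDH1A1, CYP26C1, TTR, CDX1 and PLAAT4) were under 1 FPKM in the WT library, so they could only come out higher. Without a filter, 1516 of 17397 genes were at least 2-fold lower and 1567 at least 2-fold higher. Of the 58 genes of the wider list with values, 4 were then lower and 15 higher. The genes that this setting adds are under 1 FPKM in both libraries. With a filter at 5 FPKM, which keeps 5 of the 10 genes, 2 of these 5 were lower and 1 higher. The same filter keeps 9326 of all genes, of which 598 were lower and 554 higher. In the wider list 2 were lower and 5 higher. Over the settings, CRABP2 ranged from −1.86 to −1.74 and DHRS3 from 1.20 to 1.46. No paired analysis was possible because each genotype has 1 library, and leaving out a library leaves no comparison. How much cultures of one genotype vary cannot be read from these libraries.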
